A study of Arabidopsis thaliana with 12 samples.

Results

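The Arabidopsis thaliana line bbx28-5 was compared with the accession Col-0 after 4 h of simulated shade. The comparison rests on 6 of the 12 RNA sequencing libraries of the study, the 3 labelled bbx28-5_SS and the 3 labelled Col-0_SS, taken by those labels. All libraries came from whole seedlings on agar and water, of Columbia background, described as biological replicates. The seeds lay for 4 days at 4 °C in darkness, received white light for 5 h and darkness for 14 h at 22 °C, and then grew for 2 days with 10 h of light and 14 h of dark. At the start of the next day the 6 shade boxes went under a green filter for 4 h, at a photosynthetically active radiation of 20 µmol per square metre per second. Red light was 0.8, far-red 5.5 and blue 1.3 µmol per square metre per second, a red to far-red ratio of 0.145. The white light libraries, bbx28-5_WL and Col-0_WL, stayed at 90 µmol per square metre per second and a ratio of 1.1, and serve here only to show where the shade result differs. The kind of lesion in bbx28-5, and whether more than a single line was used, are not given in the sources used here.

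BBX28 belongs to the B-box proteins, zinc finger proteins of which many act in light signalling. In its structural group it has a single B-box, and it is known as a repressor of photomorphogenesis that binds the transcription factor HY5 and lowers its activity. Leaves above a seedling absorb red and blue light and pass far-red, and seedlings answer with phytochrome-interacting factors, auxin synthesis and elongation, while HFR1 and related proteins hold that answer back. The comparison describes how the lines differ after shade.

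Total counts were 10614484 to 12506840 in bbx28-5 and 12404954 to 14298869 in Col-0. A level is given as CPM, counts relative to the scaled library size, and 3 counts in a library, taken as the floor of detection, equal 0.255 to 0.307 CPM in bbx28-5 and 0.193 to 0.227 CPM in Col-0. Intervals and floors cover counting error only. The first principal component held 62% of the variation and separated the genotypes. The library bbx28-5_SS replicate 2 stood apart: 1854 genes lay at least 2-fold from the mean of its group's other libraries, against 72 to 490 in the other 5 libraries, and the transcript length weighted by counts had a median of 1607 bases against 1777 to 1801. Counts for the main lists are therefore given without each library left out in turn, this one included. Scaling matters as well, since total counts in place of the trimmed mean of M values (TMM) shift every log2 difference by -0.23, and directions are relative to TMM. Markers of mesophyll, root hair, endodermis and dividing cells were detected in every library except 1 of 9 endodermis markers in bbx28-5_SS replicate 2.

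Transcripts of BBX28 (AT4G27310, on chromosome 4) were present at 148, 186 and 133 CPM in bbx28-5, against 104, 109 and 100.2 CPM in Col-0. The groups did not overlap, and the level was higher in the line named for the gene. The log2 difference was 0.57 ± 0.14 (SE, adjusted p = 0.0274) in edgeR's quasi-likelihood test with Benjamini-Hochberg adjustment, the test behind every adjusted p given here. Without bbx28-5_SS replicate 2 it was 0.42, and the call was lost without bbx28-5_SS replicate 1 (adjusted p = 0.0542), without Col-0_SS replicates 1, 2 and 3 (0.111, 0.0895 and 0.127) and with total counts (0.34, adjusted p = 0.0937). The white light libraries gave 0.57 (adjusted p = 4.16e-06). Reads over the gene as a whole do not test the genotype label while the lesion is not known.

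Of 18585 genes tested, 3693 differed at an adjusted p under 0.05, or 19.9%. There were 1818 higher in bbx28-5 (9.78% of the genes tested) and 1875 lower (10.1%), and these shares are the background for every count of members below. At least 2-fold changes were less even, with 420 higher and 930 lower, 7.26% of genes in all. The groups did not overlap for 44.1% of genes, with all bbx28-5 libraries higher for 20.9% and lower for 23.2%. Without bbx28-5_SS replicate 2 the count was 7801, or 41.3%, with 4112 higher (21.8%) and 3689 lower (19.5%), and 3677 of the 3693 genes were called there again in the same direction. Without single Col-0 libraries it was 1236, 1524 and 1152 for replicates 1, 2 and 3. With total counts 854 genes were higher (4.6%) and 3854 lower (20.7%), so the balance of directions depends on the scaling. A call survived leaving out each library in turn for 461 higher and 557 lower genes. Single genes named below as changed are of that kind unless it is said otherwise. Values after "rose by", "fell by" and "differed by" are log2 differences between bbx28-5 and Col-0, with their standard errors. The replicates are described as biological, but their cultures are not, so p-values measure the spread between these seedling samples.

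**Figure D1:**
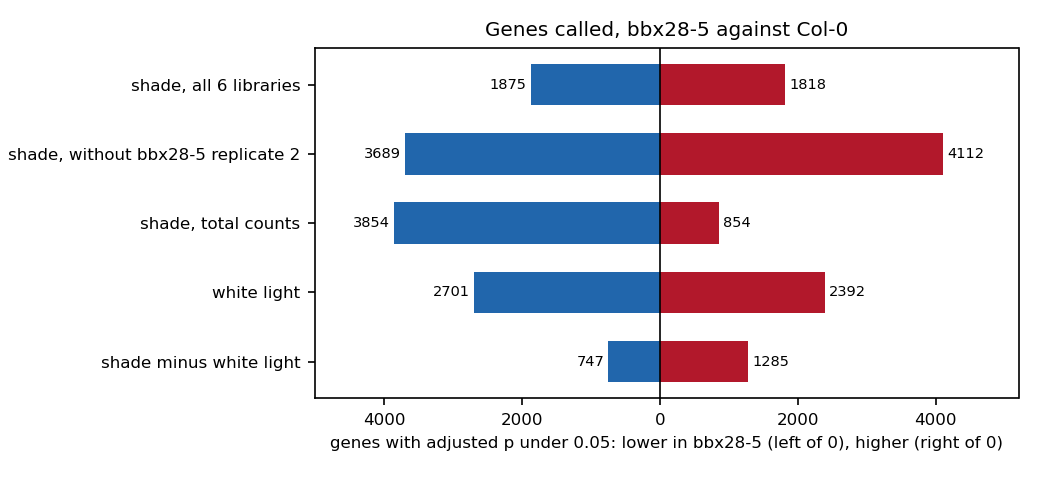
Number of genes with an adjusted p under 0.05 for bbx28-5 against Col-0, higher to the right of 0 and lower to the left, in shade with all 6 libraries, in shade without bbx28-5_SS replicate 2, in shade with total counts, in white light, and for the difference between the lights. The shade comparison gives 1818 higher and 1875 lower genes, 4112 and 3689 without replicate 2, and 854 and 3854 with total counts.

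Several of the largest rises were transcripts of the maturing seed. Seeds of Arabidopsis store protein as 2S albumins (the SESA genes) and cruciferins (the CRU genes) and oil in bodies coated by oleosins, and their transcripts are normally low in seedlings. Of 9 listed seed storage genes 8 were tested, and 7 of them were called higher in bbx28-5, also without any single library. All 7 reached the minimum of the filter on low counts (0.803 CPM in 3 libraries) in all libraries of bbx28-5 but not of Col-0. They were tested because they were high in bbx28-5, so the count says nothing of the list's direction and the sizes below are a description. CRA1, the member that reached it in both groups, was at 235, 99.4 and 35.8 CPM in bbx28-5, against 38.2, 98 and 67.6 CPM in Col-0, with 0.86 ± 0.59 (SE, adjusted p = 0.337). AT1G03890, the member not tested, had 21 counts in bbx28-5 and 0 in Col-0. The promoters of such genes carry RY elements, bound by the B3 factors of seed maturation, and the 250 bases before the gene start (RefSeq, TAIR10.1) are shown for SESA3 (chr4:13611546-13611795, plus strand) and SESA5 (chr5:22239188-22239437, minus strand) because these genes had some of the largest differences, with every CATGCA or its reverse complement TGCATG in capitals.
SESA3: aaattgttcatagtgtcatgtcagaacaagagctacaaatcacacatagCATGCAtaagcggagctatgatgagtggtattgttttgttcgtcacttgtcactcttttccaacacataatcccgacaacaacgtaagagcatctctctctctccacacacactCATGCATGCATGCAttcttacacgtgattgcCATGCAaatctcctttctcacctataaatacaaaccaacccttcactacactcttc
SESA5: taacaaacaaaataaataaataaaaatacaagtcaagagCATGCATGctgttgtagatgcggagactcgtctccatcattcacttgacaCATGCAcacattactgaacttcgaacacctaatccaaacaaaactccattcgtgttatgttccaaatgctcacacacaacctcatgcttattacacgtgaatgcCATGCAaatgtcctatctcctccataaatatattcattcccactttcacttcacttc
Counting overlapping matches on both strands, SESA3 has 7 and SESA5 has 4. At least 1 match lay in the window of 8 of 9 listed storage genes, against 8.43% of 27443 nuclear protein-coding genes. A match is a description of the letters only.

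SESA3 was at 146, 50.5 and 26.7 CPM in bbx28-5, against 0.193, 0 and 0.684 CPM in Col-0. No bbx28-5 library came near any Col-0 library, and replicate 1 was well above the other bbx28-5 libraries. CRU3, a cruciferin, was at 301, 89.9 and 54 CPM in bbx28-5, against 0.193, 0.303 and 0.615 CPM in Col-0. SESA5 was at 45.7, 14.3 and 7.49 CPM in bbx28-5, against 0, 0.151 and 0 CPM in Col-0, a sum of 682 counts against 2. By counts that is a ratio of 470.2 (95% exact interval 129.7 to 3891), and the groups did not overlap for any of these genes. The log2 differences were 7.91 ± 0.92 (SE, adjusted p = 0.00152), 8.61 ± 0.88 (SE, adjusted p = 0.000894) and 8.64 ± 1.15 (SE, adjusted p = 0.00254). SESA1, SESA2 and CRU2 differed by 6.23, 6.66 and 7.93, the last 2 against Col-0 sums of 2 counts each, which makes the size of those values depend on the fit. SESA1 to SESA4 lie side by side on chromosome 4 and are similar in sequence, so reads may be split among them, while SESA5 is on chromosome 5.

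Some other seed genes were also called higher. In the list of oleosins and late embryogenesis proteins 7 of 12 tested were higher, 3 of these 12 having reached the filter's minimum in bbx28-5 alone, and 4 of the other 9 were higher and none lower. The number higher was 6, 8 and 8 without bbx28-5 replicates 1, 2 and 3, and 2, 8 and 2 without Col-0 replicates 1, 2 and 3. EM1, a late embryogenesis abundant protein, was at 22.3, 17.9 and 8.34 CPM in bbx28-5, against 0.837, 0.606 and 0.684 CPM in Col-0, a difference of 4.48 ± 0.43 (SE, adjusted p = 0.000743). OLEO4, an oleosin, differed by 6.05 ± 1.02 (SE, adjusted p = 0.00647) and the oleosin family locus AT3G01570 by 3.78 ± 0.39 (SE, adjusted p = 0.000915). LCR67, a low-molecular-weight cysteine-rich protein, rose by 5.26 ± 0.56, and the LEA protein gene M10 by 5.06 ± 0.59. AT1G68250, annotated as an uncharacterized protein, reached 46.5, 52.5 and 17.61 CPM in bbx28-5, against 0.322, 0.681 and 0.137 CPM in Col-0, with 6.67 ± 0.59 (SE, adjusted p = 0.000554). UBC12, a ubiquitin-conjugating enzyme, was at 11.58, 15 and 10.6 CPM in bbx28-5, against 0.129, 0.227 and 0.0684 CPM in Col-0, a difference of 6.38 ± 0.33 (SE, adjusted p = 0.000124). AT2G05580, of the glycine-rich proteins, rose by 5.54 ± 0.86. At least EM1, AT1G68250 and UBC12 reached the filter's minimum in bbx28-5 but not in all Col-0 libraries. They were tested through their level in bbx28-5, so their sizes are a description. Over all genes tested 179 reached it in bbx28-5 alone.

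The summed level of 7 seed markers was 131 to 747 CPM in bbx28-5 and 39.6 to 101 CPM in Col-0. These markers, SESA1 to SESA4, CRA1, CRU3 and OLEO1, overlap the lists above, so the sum is not separate evidence. In Col-0 most of it was CRA1, which was not called. In bulk RNA more cells of a type and more RNA per cell cannot be told apart, and RNA left from the seed and RNA made by the seedling cannot be told apart either. Genes that turn seed oil into sugar after germination rose in part: 4 of 12 were higher and 1 lower. ICL, the isocitrate lyase of the glyoxylate cycle, was at 1442, 668 and 828 CPM in bbx28-5, against 219, 306 and 264 CPM in Col-0, a difference of 1.90 ± 0.28 (SE, adjusted p = 0.00378). For the list the number higher was 3, 10 and 4 without bbx28-5 replicates 1, 2 and 3, and 2, 2 and 1 without Col-0 replicates 1, 2 and 3. Its mean log2 level was 0.57 and 0.49 above Col-0 in bbx28-5 replicates 1 and 3, and 0.08 below it in replicate 2.

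Heat shock genes formed the next clear group. Small heat shock proteins bind unfolding proteins until larger chaperones refold them, and their transcripts are made by heat stress factors that bind repeats of GAA and TTC. All but 1 of 14 tested members were higher and none lower, with a median of 2.58 against -0.03 over all genes tested. Of the 13 members that reached the filter's minimum in both groups, 12 were higher. HSP21 reached it in bbx28-5 alone and was tested through its level there, so its size is a description. Higher members numbered 13, 13 and 13 without bbx28-5 replicates 1, 2 and 3, and 12, 11 and 11 without Col-0 replicates 1, 2 and 3. HSP21, of the chloroplast, was at 20.9, 21.1 and 25.1 CPM in bbx28-5, against 1.67, 0.379 and 0.821 CPM in Col-0. The cytosolic HSP17.4 was at 85.4, 124 and 119.9 CPM in bbx28-5, against 20.9, 14.8 and 13.9 CPM in Col-0. HSP17.6A, picked after its values were seen, was at 369.5, 580.5 and 604 CPM in bbx28-5, against 92, 54 and 55.6 CPM in Col-0. In each the lowest bbx28-5 library was above the highest Col-0 library. The differences were 4.50 ± 0.34 (SE, adjusted p = 0.000404) for HSP21, 2.73 ± 0.21 (SE, adjusted p = 0.000404) for HSP17.4 and 2.95 ± 0.27 (SE, adjusted p = 0.000658) for HSP17.6A. The mitochondrial HSP23.6-MITO rose by 2.26 ± 0.19 and the HSP20-type locus AT1G07400 by 2.42 ± 0.17. The member that was not higher was AT4G21870, at 16.9, 24.2 and 17.3 CPM in bbx28-5, against 25.4, 26.8 and 24.1 CPM in Col-0, with -0.39 ± 0.16 (SE, adjusted p = 0.123). It was called lower without bbx28-5_SS replicate 2 and with total counts.

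Among heat stress factors and large chaperones 11 of 19 were higher and none lower (median 0.73), and the number higher was 8, 16 and 8 without bbx28-5 replicates 1, 2 and 3, and 6, 6 and 6 without Col-0 replicates 1, 2 and 3. HSP70 was at 1579.5, 1039.5 and 1655 CPM in bbx28-5, against 582, 585 and 519.8 CPM in Col-0, with 1.34 ± 0.18 (SE, adjusted p = 0.00255). The inducible Hsp70b rose by 2.28 ± 0.31, the FKBP-type isomerase locus AT5G48570 by 1.501 ± 0.21 and the repressor-class factor HSFB2A by 0.92 ± 0.13. For HSP70, Hsp70b and AT5G48570 bbx28-5_SS replicate 2 was the lowest of its group, while for HSP17.4 and HSP17.6A the lowest was replicate 1. APX2, a cytosolic ascorbate peroxidase known as heat-inducible and picked after its values were seen, averaged 25.2 ± 10.4 CPM in bbx28-5 and 3.65 ± 1.7 CPM in Col-0 (SD, n = 3 each), without overlap of the groups, with 2.78 ± 0.38 (SE, adjusted p = 0.00281). A heat shock element of 3 alternating repeats of GAA and TTC, searched on both strands, was rare: 2 of 14 small heat shock genes and 3 of 21 heat factor and chaperone genes had it within 250 bases before the gene start, against 0.386% of all promoters. HSP17.4 (chr3:16984868-16985117, minus strand, RefSeq TAIR10.1) held 2 matches and is shown with them in capitals.
HSP17.4: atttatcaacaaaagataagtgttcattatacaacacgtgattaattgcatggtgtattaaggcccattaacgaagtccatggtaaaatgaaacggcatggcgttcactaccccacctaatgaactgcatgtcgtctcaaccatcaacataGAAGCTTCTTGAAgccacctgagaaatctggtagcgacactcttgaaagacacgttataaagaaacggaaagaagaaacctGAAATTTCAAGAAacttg
The factor gene HSFA7A also held 2, and it was at 26.9, 18.1 and 25.3 CPM in bbx28-5, against 31.7, 29.8 and 28.7 CPM in Col-0, with -0.36 ± 0.16 (SE, adjusted p = 0.15).

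**Figure D2:**
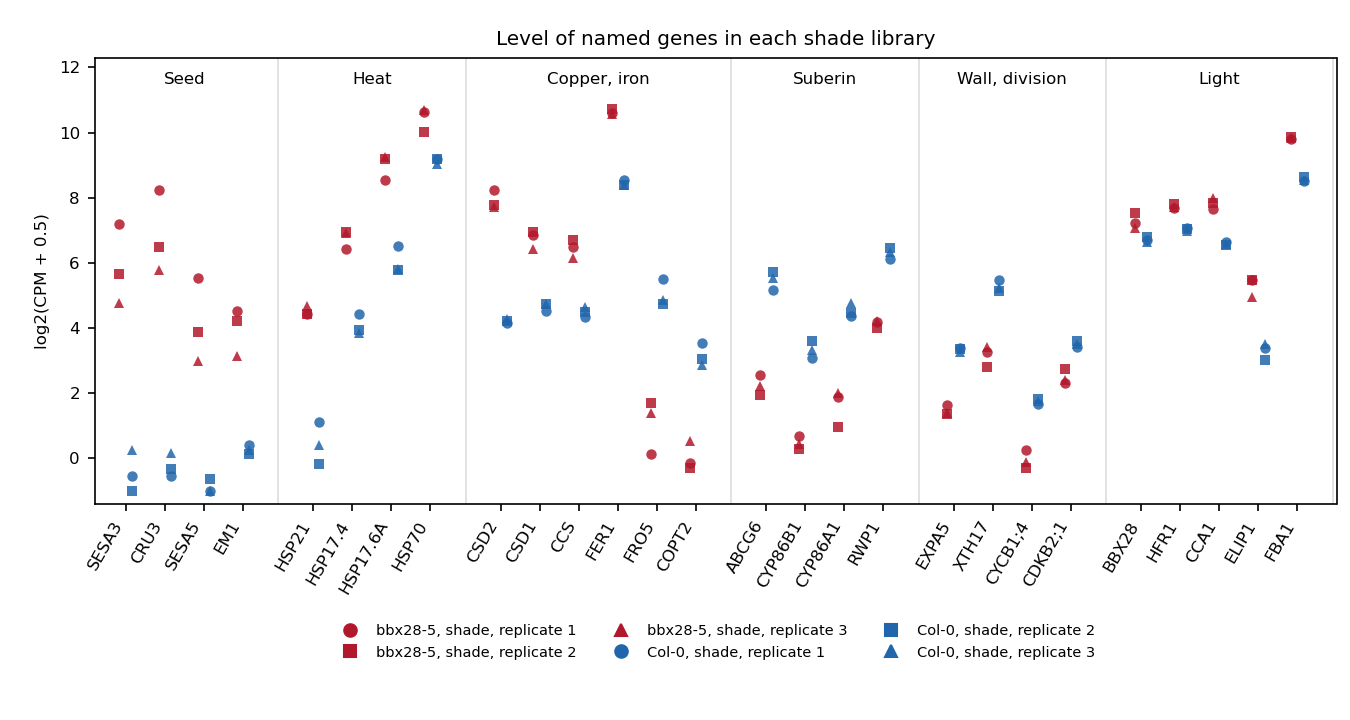
Level of 27 genes in each shade library on a log2 scale of CPM with 0.5 added, bbx28-5 in red left of Col-0 in blue, with a symbol for each replicate. For all 27 genes the 3 red symbols lie clear of the 3 blue ones, with seed, heat, copper/zinc superoxide dismutase and ferritin transcripts above Col-0 and FRO5, COPT2, suberin, expansin and mitotic transcripts below.

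Copper genes split by role. Plants short of copper raise the transporters COPT2 and ZIP2 and the reductases FRO4 and FRO5 through the factor SPL7, and at the same time make miR398, a microRNA that cuts the transcripts of the copper/zinc superoxide dismutases CSD1 and CSD2 and of their chaperone CCS, so that iron superoxide dismutase takes over. In bbx28-5 the targets were higher and the uptake genes lower: of 19 listed genes 6 were higher and 7 lower, and 3 of the 19 reached the filter's minimum in Col-0 alone. Among the 16 that reached it in both groups 6 were higher and 4 lower. The number higher was 5, 8 and 6 without bbx28-5 replicates 1, 2 and 3, and 4, 4 and 4 without Col-0 replicates 1, 2 and 3, and the number lower 6, 7 and 6 without bbx28-5 replicates 1, 2 and 3, and 6, 6 and 6 without Col-0 replicates 1, 2 and 3. CSD2 was at 302, 219 and 209 CPM in bbx28-5, against 17.2, 17.9 and 18.9 CPM in Col-0. CSD1 was at 114, 124 and 85.9 CPM in bbx28-5, against 22.6, 26.2 and 26.3 CPM in Col-0, and CCS at 88.5, 104 and 71.1 CPM in bbx28-5, against 19.8, 22.2 and 24.3 CPM in Col-0. For these 3 transcripts the lowest bbx28-5 library was far above the highest Col-0 library. The differences were 3.75 ± 0.18 (SE, adjusted p = 0.000124), 2.11 ± 0.17 (SE, adjusted p = 0.000404) and 1.99 ± 0.17 (SE, adjusted p = 0.000538).

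The mature miR398 sequences and the stretches of the 3 transcripts that pair best with miR398b-3p are printed because these transcripts moved together, 5′ to 3′ from RefSeq TAIR10.1. Capitals mark the seed (bases 2 to 8) in the microRNAs and the bases able to form Watson-Crick pairs in the targets.
miR398a-3p: uGUGUUCUcaggucaccccuu
miR398b-3p: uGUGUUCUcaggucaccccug
CSD1 stretch: aAGGGGUuuCCUGAGAuCACA
CCS stretch: auuGGGaGACCUGgGAACACu
CSD2 stretch: ugcGGGUGACCUGgGAAacau
miR398b-3p (chr5:4691107-4691127, plus strand) and miR398c-3p have the same sequence, and miR398a-3p differs only outside the seed. Of 21 positions 17 pair in CSD1, 15 in CCS and 13 in CSD2 when wobble pairs are not counted. The stretch lies in the coding sequence of CCS and CSD2 and outside it in CSD1. The peroxisomal CSD3, which had 13 pairs at best, scattered along the stretch, was at 42.8, 75.4 and 47.8 CPM in bbx28-5, against 31.7, 30.8 and 34.9 CPM in Col-0, with 0.77 ± 0.21 (SE, adjusted p = 0.0365), a call lost without Col-0_SS replicates 1, 2 and 3. The libraries hold polyadenylated RNA, and mature microRNAs were not measured.

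On the uptake side FRO5 was at 0.604, 2.77 and 2.13 CPM in bbx28-5, against 44.7, 26.3 and 28.6 CPM in Col-0. FRO4, its neighbour on chromosome 5 and close copy, was at 0.201, 0.102 and 0.51 CPM in bbx28-5, against 6.24, 4.09 and 5.88 CPM in Col-0. COPT2 was at 0.403, 0.307 and 0.936 CPM in bbx28-5, against 11.1, 7.72 and 6.84 CPM in Col-0. Every bbx28-5 library was below every Col-0 library for these genes, and the differences were -4.17 ± 0.40 (SE, adjusted p = 0.00074), -4.20 ± 0.42 (SE, adjusted p = 0.000824) and -3.89 ± 0.38 (SE, adjusted p = 0.000757). FRO5, FRO4 and COPT2 are the 3 listed copper genes that reached the filter's minimum in Col-0 alone. They were tested through their level in Col-0, so these sizes are a description. YSL2, a transporter of metal chelates, fell by 1.82 ± 0.16. The iron superoxide dismutase FSD1 was at 825, 914 and 899 CPM in bbx28-5, against 1468, 1453 and 1322 CPM in Col-0, a difference of -0.69 ± 0.11 (SE, adjusted p = 0.00459), while its relative FSD2 rose by 1.49 ± 0.20, both picked after their values were seen. AT1G71200, annotated as a bHLH DNA-binding protein, fell with them, by 3.80 ± 0.41, and AT5G07475 of the cupredoxin family by 3.66 ± 0.33. BCB, a blue copper-binding protein picked after its values were seen, moved the other way, at 533, 643 and 432 CPM in bbx28-5, against 50.5, 44.8 and 54.2 CPM in Col-0, with 3.43 ± 0.18 (SE, adjusted p = 0.000124).

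Iron genes also went both ways. Ferritins store iron in plastids and are raised when iron is plentiful or under oxidative stress, and all 3 called rises of the list were ferritins. FER1 was at 1542, 1675 and 1531 CPM in bbx28-5, against 373, 337 and 338 CPM in Col-0, with 2.18 ± 0.11 (SE, adjusted p = 0.000124). FER4 and FER3 differed by 1.71 ± 0.13 and 1.41 ± 0.11. Of 16 genes tested 5 reached the filter's minimum in Col-0 alone. Over the 16 the lower calls numbered 4, and over the 11 that reached it in both groups 2. Among those that reached it in Col-0 alone, bHLH38, a factor of the iron deficiency response, was at 0.403, 0.307 and 0.425 CPM in bbx28-5, against 1.29, 1.44 and 0.957 CPM in Col-0, with -1.66 ± 0.37 (SE, adjusted p = 0.0183). Its level was near the floor and its call was lost without bbx28-5_SS replicate 1 and without Col-0_SS replicates 1 and 2. The number of lower iron genes was 0, 5 and 4 without bbx28-5 replicates 1, 2 and 3, and 0, 0 and 1 without Col-0 replicates 1, 2 and 3.

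Most suberin genes tested were lower. Suberin is the polyester of fatty acids, alcohols and ferulate laid on root endodermis and seed coat, made by fatty acid hydroxylases, reductases and acyltransferases and exported by ABCG transporters. Of 13 tested genes 12 were lower in bbx28-5, with differences of -3.43 to -0.51 over the 13. Of the 13, 4 reached the filter's minimum in Col-0 alone, and of the 9 that reached it in both groups 8 were lower and none higher. The number lower was 12, 13 and 12 without bbx28-5 replicates 1, 2 and 3, and 10, 10 and 10 without Col-0 replicates 1, 2 and 3. ABCG6, an exporter, was at 5.44, 3.38 and 4.17 CPM in bbx28-5, against 35.5, 52.3 and 45.8 CPM in Col-0. CYP86B1, a hydroxylase of very long chain fatty acids, was at 1.11, 0.717 and 0.851 CPM in bbx28-5, against 7.98, 11.7 and 9.44 CPM in Col-0. It is among the 4 that reached the minimum in Col-0 alone, so its size is a description. RWP1, the transferase that adds ferulate, was at 17.7, 15.6 and 18 CPM in bbx28-5, against 69.7, 87.1 and 79.7 CPM in Col-0. None of these groups overlapped, and the differences were -3.36 ± 0.22 (SE, adjusted p = 0.000289), -3.43 ± 0.26 (SE, adjusted p = 0.000404) and -2.21 ± 0.14 (SE, adjusted p = 0.000238). FAR4, which makes primary alcohols, fell by 1.93 ± 0.15. CYP86A1, the hydroxylase of shorter chains, GPAT5, an acyltransferase, and MYB41, a transcription factor known to switch on suberin synthesis, were picked after their values were seen and differed by -3.06 ± 0.28, -2.33 ± 0.31 and -2.54 ± 0.35.

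Other large falls lay outside the list. AT5G37690, an SGNH hydrolase, was at 0.503, 0.307 and 0.51 CPM in bbx28-5, against 8.56, 7.5 and 9.09 CPM in Col-0, and AT2G23540, a GDSL lipase, at 3.12, 2.46 and 2.3 CPM in bbx28-5, against 31.2, 28.6 and 34.5 CPM in Col-0, with differences of -4.21 ± 0.26 (SE, adjusted p = 0.000238) and -3.58 ± 0.17 (SE, adjusted p = 0.000124). Neither locus has a symbol in the annotation. AT5G44550, of the UPF0497 family, differed by -4.84 ± 0.51 (SE, adjusted p = 0.00096), the acyltransferase locus AT1G78990 by -3.48 ± 0.30 (SE, adjusted p = 0.000545) and the dirigent-like locus AT4G11210 by -4.08 ± 0.31 (SE, adjusted p = 0.000404). AT1G64795, an uncharacterized protein, had 0 counts in all 3 bbx28-5 libraries and 147 in the Col-0 libraries together, at least 35.5-fold lower when 3 counts over the group are set as the floor. UMAMIT14, a transporter of the family that exports amino acids, fell by 4.11 ± 0.39. PE11, a pectinesterase, fell by 3.86 ± 0.45, AT2G22510, a hydroxyproline-rich glycoprotein, by 3.83 ± 0.28, and AT5G49350, a glycine-rich protein, by 3.55 ± 0.35. PELPK1 and PELPK2, a pair of neighbouring wall protein genes picked after their values were seen, were at 34.7, 23.7 and 37 CPM in bbx28-5, against 171, 179 and 185 CPM in Col-0 and at 1.11, 0.512 and 0.425 CPM in bbx28-5, against 5.92, 9.09 and 7.73 CPM in Col-0, with differences of -2.49 ± 0.18 and -3.48 ± 0.34. A triterpene cluster on chromosome 5, also picked so, fell together: MRN1, the marneral synthase, by 2.85 ± 0.34, and its neighbours CYP71A16 and CYP705A12 by 2.64 ± 0.22 and 2.56 ± 0.25. RD20, of the caleosin-related family and picked in the same way, differed by 2.36 ± 0.28. At least AT5G37690, AT1G64795 and PELPK2 reached the filter's minimum in Col-0 but not in all bbx28-5 libraries. They were tested through their level in Col-0, so their sizes are a description. Over all genes tested 1212 reached it in Col-0 alone.

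Further genes of the root were examined. Of 8 Casparian strip genes, which build the endodermal barrier, 3 were lower and all 8 had negative differences (median -0.62), and the number lower was 2, 6 and 5 without bbx28-5 replicates 1, 2 and 3, and 1, 2 and 1 without Col-0 replicates 1, 2 and 3. CASP4 was at 3.32, 3.58 and 3.15 CPM in bbx28-5, against 6.89, 7.19 and 6.09 CPM in Col-0, with -1.004 ± 0.17 (SE, adjusted p = 0.00708). Among 13 root hair genes 3 were lower, none of them kept without each library, and the number lower was 0, 7 and 0 without bbx28-5 replicates 1, 2 and 3, and 0, 6 and 0 without Col-0 replicates 1, 2 and 3. The summed level of 9 endodermis markers, CASP genes, CYP86A1 and GPAT5 among them, was 88.1 to 108 CPM in bbx28-5 and 172 to 183 CPM in Col-0. For 7 root hair markers the sums were 86.3 to 94.02 CPM in bbx28-5 and 87.7 to 152 CPM in Col-0. The part of these markers in the suberin result was not tested.

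**Figure D3:**
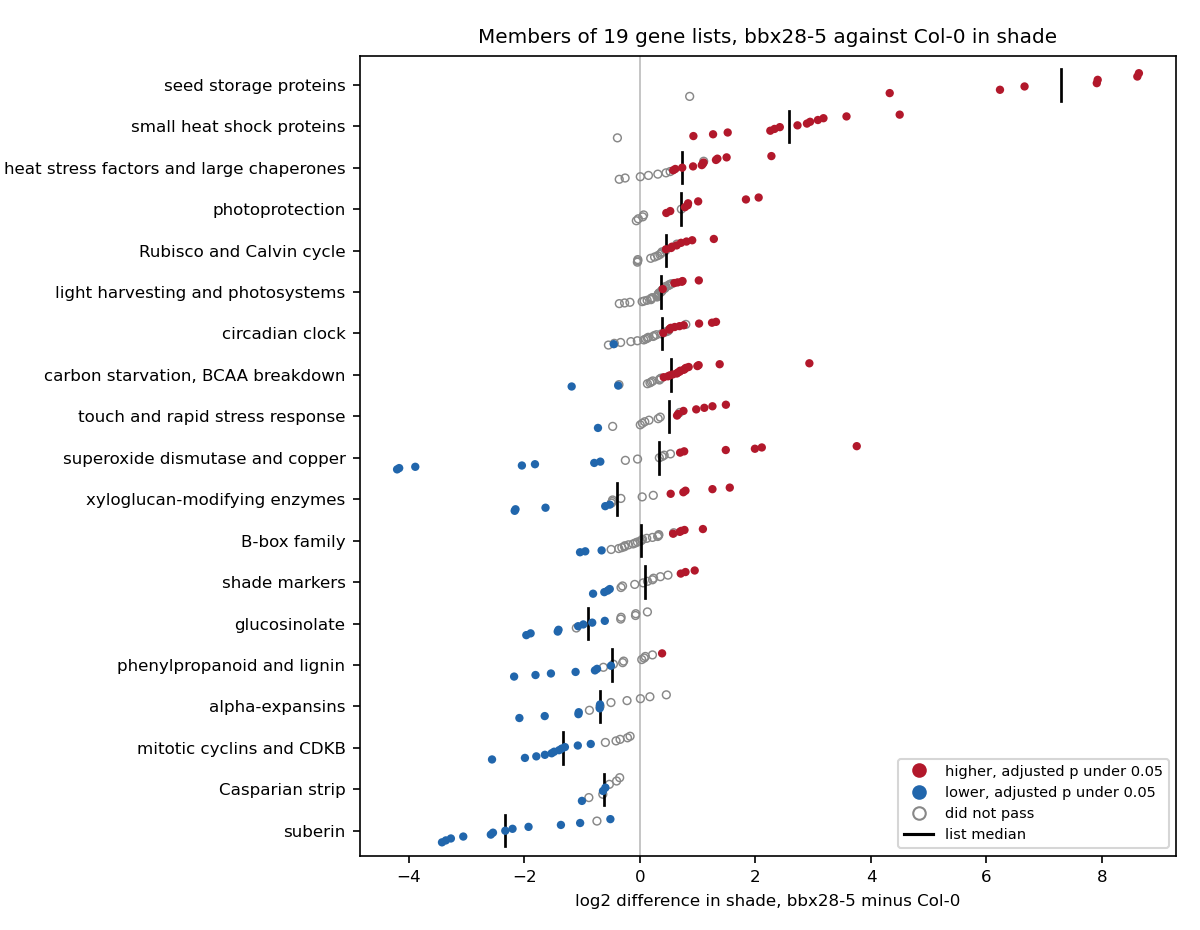
Log2 difference in shade, bbx28-5 minus Col-0, of every tested member of 19 gene lists, red where higher and blue where lower at an adjusted p under 0.05, open where the test was not passed, with a bar at each list's median. Called seed storage and small heat shock genes stand on the right and called suberin and mitotic genes on the left, lists in which some members passed the filter on low counts through 1 group alone, while the copper list spreads to both sides.

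Mitotic cyclins and B-type cyclin-dependent kinases are transcribed late in the cell cycle through MYB factors that bind AACGG, and 11 of 16 tested genes were lower. Of the 16, 7 reached the minimum of the filter on low counts in all libraries of Col-0 but not of bbx28-5, and were tested through their level in Col-0. Of the 9 that reached it in both groups, 4 were lower and none higher. CYCB1;4 and CYC1BAT, described below, are among the 7, so their sizes are a description. The number lower was 8, 12 and 8 without bbx28-5 replicates 1, 2 and 3, and 4, 5 and 5 without Col-0 replicates 1, 2 and 3. CYCB1;4 was at 0.705, 0.307 and 0.425 CPM in bbx28-5, against 2.7, 3.03 and 2.87 CPM in Col-0, and CDKB2;1 at 4.43, 6.25 and 4.85 CPM in bbx28-5, against 10.2, 11.7 and 10.8 CPM in Col-0. The groups did not overlap, and the differences were -2.56 ± 0.32 (SE, adjusted p = 0.00199) and -1.08 ± 0.18 (SE, adjusted p = 0.00559). CYCA1;1 and CYCB2;4 fell by 1.65 ± 0.29 and 1.53 ± 0.26. The AACGG core or its complement CCGTT occurred in the 250 bases before the start of 10 of 17 listed genes, against 20.6% of all promoters, and at least 3 times in 6 of them, against 0.736%. The promoters of 2 called genes, with 4 and 3 matches, are shown with these in capitals (RefSeq TAIR10.1): CYC1BAT, the B1-type cyclin AT5G06150 (chr5:1861704-1861953, minus strand), and CYCB2;3 (chr1:7137829-7138078, minus strand).
CYC1BAT: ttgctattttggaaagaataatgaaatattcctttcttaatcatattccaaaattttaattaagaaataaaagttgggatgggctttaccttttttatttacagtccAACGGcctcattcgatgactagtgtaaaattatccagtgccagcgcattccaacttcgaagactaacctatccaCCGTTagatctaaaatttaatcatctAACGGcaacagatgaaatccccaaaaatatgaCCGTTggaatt
CYCB2;3: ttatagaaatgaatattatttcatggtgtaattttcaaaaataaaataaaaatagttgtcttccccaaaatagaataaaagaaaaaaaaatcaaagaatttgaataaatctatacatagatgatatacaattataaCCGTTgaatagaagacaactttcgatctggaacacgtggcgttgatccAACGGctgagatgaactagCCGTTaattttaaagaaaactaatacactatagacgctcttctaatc
CYC1BAT was at 2.42, 0.615 and 0.681 CPM in bbx28-5, against 4.51, 5.75 and 4.38 CPM in Col-0, with -1.99 ± 0.43 (SE, adjusted p = 0.0164). CYCB2;3 was at 5.34, 5.53 and 2.21 CPM in bbx28-5, against 10.5, 10.1 and 11.1 CPM in Col-0, with -1.30 ± 0.29 (SE, adjusted p = 0.0184). Both calls were lost without each of the 3 Col-0 libraries. Summed levels of 4 markers of dividing cells, which overlap this list, were 13.4 to 17 CPM in bbx28-5 and 24.2 to 26.0 CPM in Col-0.

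Alpha-expansins, proteins that loosen walls during growth, gave 6 lower and none higher of 13 (median -0.69), the number lower being 6, 9 and 5 without bbx28-5 replicates 1, 2 and 3, and 3, 3 and 3 without Col-0 replicates 1, 2 and 3. EXPA5 was at 2.62, 2.05 and 2.13 CPM in bbx28-5, against 10.04, 9.69 and 9.16 CPM in Col-0, a clear separation at a low level, with -2.09 ± 0.18 (SE, adjusted p = 0.000538). EXPA14 and EXPA11 fell by 1.65 ± 0.20 and 1.06 ± 0.18. Xyloglucan endotransglucosylases, which cut and rejoin wall xyloglucan, had 5 higher and 5 lower of 16, and 2 higher and 8 lower with total counts. XTH17 was at 9.06, 6.45 and 10.2 CPM in bbx28-5, against 43.7, 34.5 and 36.7 CPM in Col-0, with -2.15 ± 0.19 (SE, adjusted p = 0.000554), and XTH19 fell by 1.63 ± 0.21. On the other side XTR6, also called XTH23, was at 527, 546 and 615 CPM in bbx28-5, against 229, 181 and 164 CPM in Col-0, with 1.56 ± 0.15 (SE, adjusted p = 0.000752), and the touch gene TCH4 rose by 1.26 ± 0.17. The number of lower XTH genes was 3, 7 and 3 without bbx28-5 replicates 1, 2 and 3, and 2, 2 and 2 without Col-0 replicates 1, 2 and 3, and the number higher 4, 5 and 2 without bbx28-5 replicates 1, 2 and 3, and 2, 2 and 2 without Col-0 replicates 1, 2 and 3. None of 7 cellulose synthesis genes of the primary wall was called in edgeR's test with all 6 libraries, with 0 at an unadjusted p under 0.05, 0 called by DESeq2 and 3 by limma voom. Without bbx28-5_SS replicate 2, in which their mean log2 level was 0.79 below that of Col-0, 4 were higher, the other bbx28-5 libraries lying 0.17 and 0.28 above Col-0.

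Phenylpropanoid genes, which supply lignin, suberin ferulate and flavonoids, were lower in 7 and higher in 1 of 16, the number lower being 6, 10 and 6 without bbx28-5 replicates 1, 2 and 3, and 5, 5 and 6 without Col-0 replicates 1, 2 and 3. PAL1, an entry enzyme, was at 19, 11.47 and 20.3 CPM in bbx28-5, against 54.5, 60.04 and 63.6 CPM in Col-0, with -1.81 ± 0.21 (SE, adjusted p = 0.00139). PAL4, 4CL1 and 4CL2 fell by 2.18 ± 0.19, 1.11 ± 0.12 and 1.54 ± 0.16. TT4, the chalcone synthase of the flavonoid branch, is not among the 16 phenylpropanoid genes, whose largest positive difference was 0.38. Its call was in the other direction, at 53, 50.9 and 57.3 CPM in bbx28-5, against 24.5, 22.9 and 21.2 CPM in Col-0 and 1.23 ± 0.12 (SE, adjusted p = 0.000764). Glucosinolates are sulphur compounds of defence, and 8 of 14 tested genes of the pathway were lower and none higher (median -0.90), the number lower being 7, 7 and 6 without bbx28-5 replicates 1, 2 and 3, and 4, 5 and 4 without Col-0 replicates 1, 2 and 3. Of 27 listed genes 13 were not tested. Of the 14, 2 reached the filter's minimum in Col-0 alone. Of the 12 that reached it in both groups 7 were lower and none higher. CYP79B3, which makes the indole branch precursor, was at 8.46, 5.02 and 7.06 CPM in bbx28-5, against 25.2, 26.6 and 28.6 CPM in Col-0, with -1.97 ± 0.19 (SE, adjusted p = 0.000741). Its partner CYP79B2 fell by 1.89 ± 0.25, the next enzyme CYP83B1 by 1.41 ± 0.19 and their regulator MYB34 by 1.42 ± 0.15. For sulphur assimilation 6 of 18 were lower and none higher, none of them kept without each library, and the number lower was 5, 11 and 4 without bbx28-5 replicates 1, 2 and 3, and 0, 0 and 3 without Col-0 replicates 1, 2 and 3. Of the 18, 2 reached the filter's minimum in Col-0 alone, and of the 15 that reached it in both groups 5 were lower. The nitrate transporter NRT1.1 and the nitrate reductase NIA1 fell by 1.399 ± 0.14 and 1.57 ± 0.18. NIA1 was at 422, 282 and 298 CPM in bbx28-5, against 871, 1082 and 1030.1 CPM in Col-0.

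In photosynthetic carbon fixation and photoprotection the calls were in 1 direction, for part of each list. Of 19 Rubisco and Calvin cycle genes 8 were higher and none lower (median 0.45), 6 were higher with total counts, and 16 of 19 had every bbx28-5 library above every Col-0 library, against 20.9% of all genes tested. The number higher was 6, 14 and 6 without bbx28-5 replicates 1, 2 and 3, and 4, 6 and 4 without Col-0 replicates 1, 2 and 3. FBA1, a plastid aldolase, was at 894, 937 and 915 CPM in bbx28-5, against 363, 394 and 374 CPM in Col-0, with 1.28 ± 0.10 (SE, adjusted p = 0.000412). RCA, which activates Rubisco, rose by 0.91 ± 0.11, the aldolase FBA2 by 0.81 ± 0.11 and the epimerase RPE by 0.71 ± 0.11. In the photoprotection list 8 of 13 were higher and none lower (median 0.72), the number higher being 6, 9 and 8 without bbx28-5 replicates 1, 2 and 3, and 4, 4 and 4 without Col-0 replicates 1, 2 and 3, and 4 were higher with total counts. ELIP1, an early light-induced protein that binds free chlorophyll, was at 43.8, 43.9 and 30.6 CPM in bbx28-5, against 9.91, 7.65 and 10.8 CPM in Col-0, with 2.06 ± 0.19 (SE, adjusted p = 0.000731). ELIP2 rose by 1.84 ± 0.32 and NPQ4, the photosystem II subunit that triggers heat dissipation, by 1.01 ± 0.15. NPQ4 was at 1112, 1564 and 1153 CPM in bbx28-5, against 640.0, 649.6 and 613 CPM in Col-0, highest in replicate 2 of bbx28-5.

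Light-harvesting and photosystem genes were less clear. Their median was 0.36, with 6 of 36 higher (16.7%) and none lower, but the list's mean log2 level above Col-0 was 0.68 in bbx28-5_SS replicate 2 against 0.15 and 0.10 in replicates 1 and 3. The number higher was 5, 12 and 6 without bbx28-5 replicates 1, 2 and 3, and 1, 2 and 1 without Col-0 replicates 1, 2 and 3, and with total counts 2 were higher and 2 lower. PSBY, a small photosystem II protein, was at 900.1, 1328 and 916 CPM in bbx28-5, against 509.8, 501 and 540.2 CPM in Col-0, with 1.02 ± 0.16 (SE, adjusted p = 0.0053). The summed level of 4 mesophyll markers, LHCB1.1, LHCB2.1, RBCS1A and RCA, was 17846 to 22681 CPM in bbx28-5 and 12821 to 14606 CPM in Col-0, and its part in these lists was not tested. In chlorophyll synthesis 4 of 18 were higher and 1 lower, a median of 0.21 that turned to -0.02 with total counts, and the number higher was 4, 11 and 4 without bbx28-5 replicates 1, 2 and 3, and 0, 2 and 0 without Col-0 replicates 1, 2 and 3. The lower gene was PORB, a light-dependent protochlorophyllide reductase, at 146, 150.3 and 138 CPM in bbx28-5, against 262, 256 and 256 CPM in Col-0, with -0.83 ± 0.10 (SE, adjusted p = 0.00186). Chlorophyll breakdown had 4 of 10 higher, 1, 6 and 2 without bbx28-5 replicates 1, 2 and 3, and 0, 0 and 0 without Col-0 replicates 1, 2 and 3, and none with total counts.

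Genes of carbon starvation and of branched-chain amino acid breakdown, which plants raise in darkness to burn protein, gave 16 higher and 2 lower of 26 (median 0.54). The number higher was 13, 21 and 13 without bbx28-5 replicates 1, 2 and 3, and 9, 9 and 8 without Col-0 replicates 1, 2 and 3. MCCB, a subunit of methylcrotonyl-CoA carboxylase in leucine breakdown, was at 1644, 1661 and 1579.5 CPM in bbx28-5, against 828, 807 and 816 CPM in Col-0, with 0.99 ± 0.10 (SE, adjusted p = 0.000808). BCDH BETA1, a subunit of the branched-chain keto acid dehydrogenase, rose by 1.38 ± 0.14 and MCCA by 0.78 ± 0.10. DIN11, a dark-inducible gene, was at 6.54, 6.66 and 5.53 CPM in bbx28-5, against 0.901, 0.833 and 0.684 CPM in Col-0, with 2.93 ± 0.23 (SE, adjusted p = 0.000404), and DIN2, a glycosyl hydrolase picked after its values were seen, rose by 1.02 ± 0.14. DIN11 was the member of this list that reached the filter's minimum in bbx28-5 alone, so its size is a description. Autophagy genes of the ATG8 family had 3 of 9 higher, none of them kept without each library, the number being 4, 5 and 2 without bbx28-5 replicates 1, 2 and 3, and 0, 0 and 0 without Col-0 replicates 1, 2 and 3.

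Clock genes were higher in 10 and lower in 1 of 28 (median 0.39), the number higher being 8, 16 and 6 without bbx28-5 replicates 1, 2 and 3, and 3, 3 and 3 without Col-0 replicates 1, 2 and 3. CCA1, a morning factor, was at 202, 226 and 256 CPM in bbx28-5, against 99.6, 92.7 and 95.7 CPM in Col-0, with 1.25 ± 0.13 (SE, adjusted p = 0.000843). LCL1, a relative of CCA1, rose by 0.76 ± 0.12 and BOA, which pairs with evening factors, by 1.32 ± 0.22. With total counts the list had 5 higher and 2 lower. Aquaporins of the plasma membrane and vacuole had 9 higher and 4 lower of 21, and 5 and 5 with total counts. The number higher was 6, 13 and 7 without bbx28-5 replicates 1, 2 and 3, and 3, 3 and 3 without Col-0 replicates 1, 2 and 3. RD28, a plasma membrane aquaporin, was at 476, 639.6 and 519 CPM in bbx28-5, against 181, 169 and 176 CPM in Col-0, with 1.64 ± 0.14 (SE, adjusted p = 0.000515), while the vacuolar TIP4;1, at 2.52, 2.46 and 2.38 CPM in bbx28-5, against 9.2, 7.19 and 8.21 CPM in Col-0, fell by 1.74 ± 0.18. Touch and rapid stress genes had 7 higher and 1 lower of 16, the number higher being 6, 9 and 6 without bbx28-5 replicates 1, 2 and 3, and 3, 4 and 3 without Col-0 replicates 1, 2 and 3. TCH3, a calmodulin-like protein, was at 205, 175 and 201 CPM in bbx28-5, against 85.9, 94.1 and 88.1 CPM in Col-0, with 1.12 ± 0.12 (SE, adjusted p = 0.00096), and WRKY40, a transcription factor, rose by 1.49 ± 0.22.

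**Figure D4:**
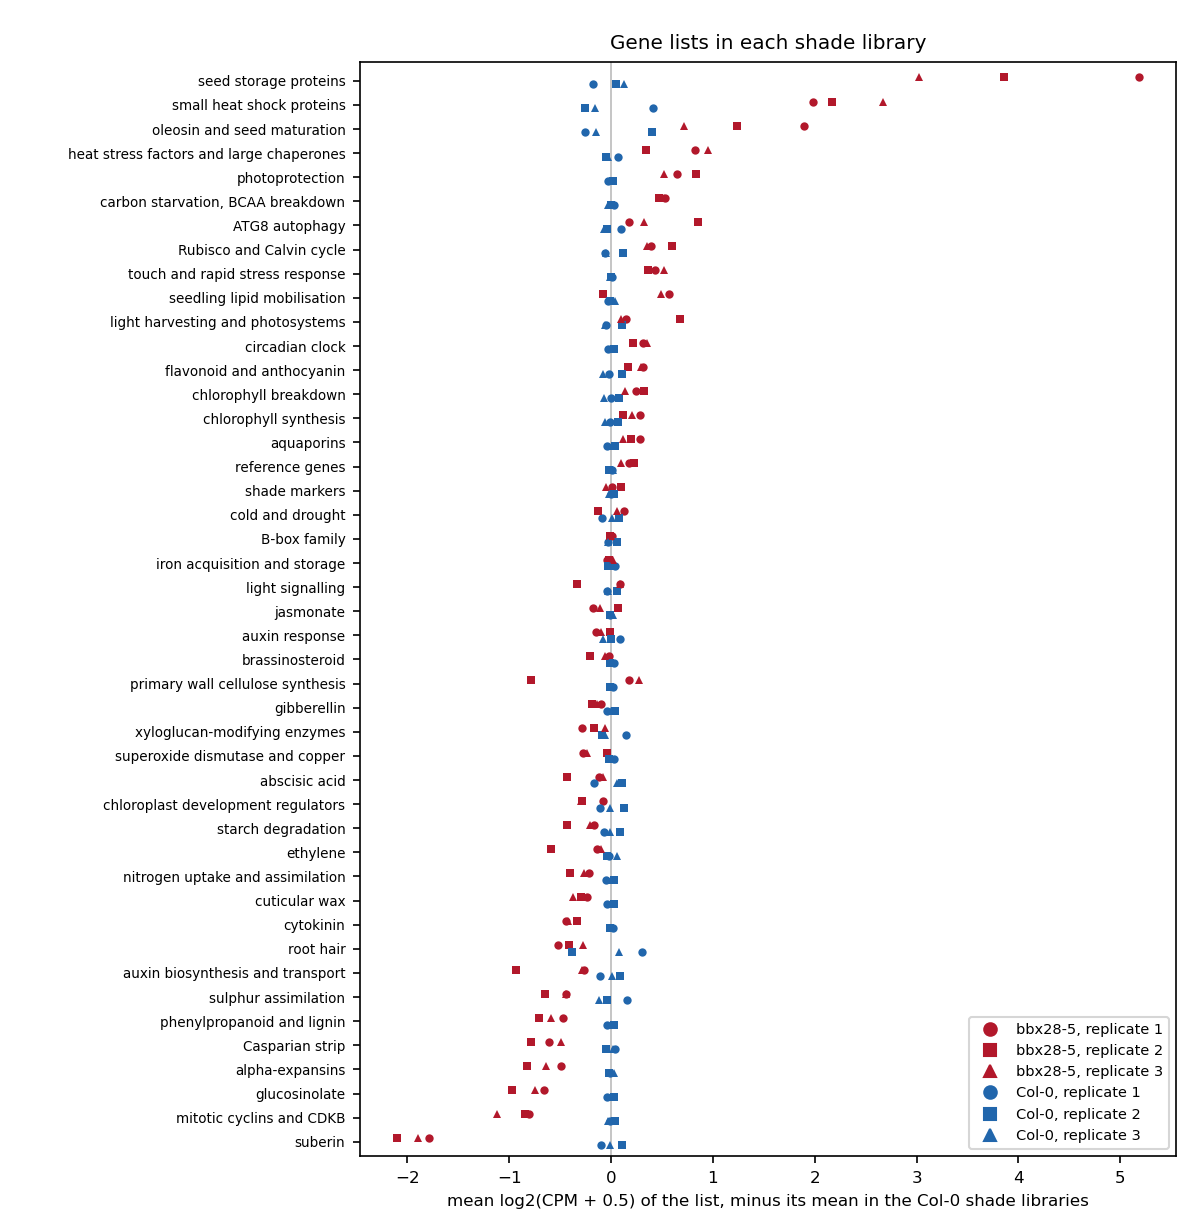
Mean log2 level of all 45 gene lists in each shade library, relative to the mean of the 3 Col-0 libraries, bbx28-5 in red above Col-0 in blue. The bbx28-5 libraries lie right of Col-0 for seed storage genes (3.02 to 5.18) and left of it for suberin genes (-2.10 to -1.79). Replicate 2 of bbx28-5 is set off from the other 2 in lists that include light harvesting, cellulose synthesis, auxin synthesis and transport, ATG8 and seedling lipid mobilisation genes.

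Among 16 shade markers 3 were higher and 4 lower, against 3 and 5 with total counts, with a median of 0.09 that turned to -0.15 with total counts and -0.10 without bbx28-5_SS replicate 2. HFR1, which traps phytochrome-interacting factors, was at 205, 222 and 211 CPM in bbx28-5, against 133, 132 and 126 CPM in Col-0. HAT2, a homeodomain factor raised by auxin and shade, was at 127, 158 and 129.6 CPM in bbx28-5, against 81.9, 76.5 and 81.7 CPM in Col-0. Their differences were 0.71 ± 0.10 (SE, adjusted p = 0.00382) and 0.79 ± 0.13 (SE, adjusted p = 0.00535), in both with a clear gap between the groups. IAA19, an auxin-induced repressor, was at 41.7, 40.7 and 42.5 CPM in bbx28-5, against 61.8, 68.7 and 60.9 CPM in Col-0, with -0.62 ± 0.11 (SE, adjusted p = 0.00889), a call lost without Col-0_SS replicate 2. YUC8, a flavin monooxygenase that makes auxin, was at 36.9, 23.45 and 32 CPM in bbx28-5, against 50.3, 59.96 and 51.9 CPM in Col-0, with -0.81 ± 0.18 (SE, adjusted p = 0.0165), a call lost without each of the 3 Col-0 libraries. The number of markers called higher was 2, 5 and 3 without bbx28-5 replicates 1, 2 and 3, and 2, 2 and 2 without Col-0 replicates 1, 2 and 3, and the number lower 2, 5 and 2 without bbx28-5 replicates 1, 2 and 3, and 1, 0 and 1 without Col-0 replicates 1, 2 and 3.

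In the list of light signalling, 3 of 27 genes were higher and 1 lower, and without bbx28-5_SS replicate 2 the counts were 11 and 4. The list's mean log2 level was 0.34 below Col-0 in that replicate and 0.08 and 0.09 above it in the other bbx28-5 libraries. The gene called lower with all 6 libraries was the member that reached the filter's minimum in Col-0 alone. Of the 26 that reached it in both groups 3 were higher and none lower. PIF4, a phytochrome-interacting factor, was at 172, 146 and 182 CPM in bbx28-5, against 116, 116 and 109.9 CPM in Col-0, with 0.55 ± 0.12 (SE, adjusted p = 0.0173), and HY5 at 26.7, 27.7 and 31 CPM in bbx28-5, against 22.9, 20.6 and 20.4 CPM in Col-0, with 0.42 ± 0.12 (SE, adjusted p = 0.0451). PIL6, known as PIF5, differed by 0.35 ± 0.10 (SE, adjusted p = 0.0472). For all of these the groups did not overlap, but each call was lost when any library other than bbx28-5_SS replicate 2 was left out, and with total counts no gene of the list was called higher. Auxin response genes were called in 3 of 27 and auxin synthesis and transport genes in 4 of 15, all 4 lower, and none of these calls was kept without each library. Of the 15, 2 reached the filter's minimum in Col-0 alone, and of the 13 that reached it in both groups 3 were lower.

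Of 26 B-box genes 5 were higher, BBX28 among them, and 3 lower, while with total counts 2 were higher and 5 lower. BBX17 was at 34.1, 42 and 38.2 CPM in bbx28-5, against 83.7, 79 and 71.8 CPM in Col-0, the largest fall of the family, with -1.04 ± 0.13 (SE, adjusted p = 0.00196). COL9, known as BBX7, was at 9.16, 13.5 and 13.3 CPM in bbx28-5, against 5.41, 5.6 and 5.88 CPM in Col-0, with 1.09 ± 0.19 (SE, adjusted p = 0.00679). BBX29, the nearest relative of BBX28, was at 5.64, 6.66 and 4.68 CPM in bbx28-5, against 10.2, 12.4 and 9.98 CPM in Col-0, with -0.95 ± 0.18 (SE, adjusted p = 0.0107), a call lost without Col-0_SS replicate 2. AT2G47890, a B-box locus with no symbol in the annotation, differed by 0.77 ± 0.15, a call lost without Col-0_SS replicates 1 and 3. The list's number higher was 3, 6 and 3 without bbx28-5 replicates 1, 2 and 3, and 2, 2 and 1 without Col-0 replicates 1, 2 and 3, and its number lower 2, 5 and 2 without bbx28-5 replicates 1, 2 and 3, and 2, 1 and 2 without Col-0 replicates 1, 2 and 3.

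The remaining lists held fewer calls. In edgeR's test none of 11 cytokinin genes was called, with 3 at an unadjusted p under 0.05, 0 called by DESeq2 and 5 by limma voom. Their median was -0.38, and 5 were lower without bbx28-5_SS replicate 2. Gibberellin genes had 2 lower of 15, brassinosteroid genes 2 higher and 1 lower of 13, ethylene genes 1 and 3 of 13, jasmonate genes 2 and 5 of 20 and abscisic acid genes 1 and 2 of 15. Among members that reached the filter's minimum in both groups, gibberellin genes had 1 lower of 14 and ethylene genes 1 higher and 2 lower of 10. Jasmonate genes had 2 and 4 of 17 and abscisic acid genes 0 and 2 of 12. Cold and drought genes had 3 higher of 10, starch degradation 1 higher and 2 lower of 15, nitrogen genes 1 and 3 of 10, flavonoid genes 2 higher of 8, plastid regulators 1 and 3 of 10 and wax genes 4 lower of 11. None of the calls for cold and drought, plastid regulators and wax was kept without each library. Without bbx28-5_SS replicate 2, with 41.3% of all genes called, gibberellin genes had 5 higher and 3 lower. Brassinosteroid genes had 3 and 2 there, ethylene genes 4 and 3, jasmonate genes 3 and 8 and abscisic acid genes 3 and 2. Cold and drought genes had 4 and 2, starch degradation 1 and 6, nitrogen genes 4 and 4 and flavonoid genes 3 and 1. Plastid regulators had 4 and 5 and wax genes 2 and 5. Of these hormone genes GA2OX8, a gibberellin oxidase, fell by 3.03 ± 0.51, the ethylene synthesis gene ACS5 by 2.04 ± 0.23 and the brassinosteroid synthesis gene BR6OX1 by 1.80 ± 0.29, while the repressor gene JAZ10 rose by 1.87 ± 0.26. Among 8 genes often used as reference, 2 were higher, ACT2 at 1329, 1252 and 1213 CPM in bbx28-5, against 868, 906 and 878 CPM in Col-0 and UBQ10 at 1570.4, 1768 and 1536 CPM in bbx28-5, against 1269.5, 1254 and 1286 CPM in Col-0, and none was called higher with total counts. Neither call was kept without each library.

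To show where these differences depend on shade, the same genotypes were compared in white light, in libraries that share no sample with the shade comparison. There 5093 of 19360 genes were called (26.3%), 2392 higher (12.4%) and 2701 lower (14%), and 663 at least 2-fold (3.42%), against 1350 in shade. The standard error had a median of 0.102 in white light against 0.185 in shade. Among 18286 genes tested in both lights 1688 were called in both, 1574 in the same direction, which is 43.4% of the shade calls and 32.4% of the white light calls. Of these 620 were higher and 954 lower, and 114 genes had opposite directions. Across genes the log2 differences correlated at r = 0.579, a description over genes that are not independent. In the fit of all 12 libraries the genotype difference was itself different between the lights for 2032 of 19711 genes (10.3%), 1285 with a higher value in shade (6.52%) and 747 with a lower one (3.79%). With total counts 3120 were called, and without bbx28-5_SS replicate 2 there were 4545.

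Copper genes differed in both lights. CSD2 differed by 3.41 (adjusted p = 1.09e-14) in white light, CSD1 by 2.24 (adjusted p = 2.26e-12), FRO5 by -4.38 (adjusted p = 2.53e-08) and COPT2 by -2.65 (adjusted p = 4.79e-09), and the interaction was called for none of these 4, with adjusted p between 0.131 and 0.899. Of 19 listed genes 5 were higher and 8 lower in white light, and the interaction was called for 2, both upward, FSD1 with 0.67 ± 0.13 (SE, adjusted p = 0.00613) and the plastocyanin gene PETE1, named after its values were seen.

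Small heat shock genes differed more in shade. In white light 4 of 13 were higher and 3 lower, against 13 of 14 higher in shade, and the interaction was called for 8, all with a higher value in shade. HSP21 differed by 1.14 (adjusted p = 0.0649) in white light and by 4.50 in shade, an interaction of 3.43 ± 0.69 (SE, adjusted p = 0.008). HSP21 was tested in shade through its level in bbx28-5, so its size is a description. HSP17.4 differed by 0.13 (adjusted p = 0.883) in white light, an interaction of 2.68 ± 0.64 (SE, adjusted p = 0.0177). The larger chaperones gave 1 higher and 5 lower of 19 in white light, and 9 interactions, all upward. HSP70 was lower in white light, at -0.32 (adjusted p = 0.0052), and higher in shade, an interaction of 1.73 ± 0.21 (SE, adjusted p = 0.00041). TCH3 did likewise, with -0.74 (adjusted p = 2.15e-05) in white light and an interaction of 1.93 ± 0.15 (SE, adjusted p = 3.28e-05), one of 8 upward interactions among 17 touch and rapid stress genes.

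Suberin and mitotic lists held fewer calls in white light. In shade 4 of 13 suberin and 7 of 16 mitotic genes were tested through their level in Col-0, so this contrast is a description. Of those at the filter's minimum in both groups, 8 of 9 suberin and 4 of 9 mitotic genes were lower in shade. In white light 10 of 13 suberin genes were lower, and 8 interactions were called, all downward. ABCG6 differed by -1.004 (adjusted p = 3.08e-08) in white light, an interaction of -2.29 ± 0.23 (SE, adjusted p = 0.000133), while for CYP86A1, at -2.70 (adjusted p = 2e-13) in white light, the interaction of -0.28 ± 0.27 (SE, adjusted p = 0.539) was not called. Of the mitotic genes 5 of 17 were lower in white light and the other 12 were not called, and 7 interactions were downward, CYCB1;4 by -1.95 ± 0.30 (SE, adjusted p = 0.00171). CYCB1;4 was tested in shade through its level in Col-0, so its size is a description. Alpha-expansins gave 2 higher and 5 lower of 13 in white light and 6 downward interactions. For photosynthesis, 18 of 36 light-harvesting and photosystem genes were lower in white light and none higher, and 8 interactions were called, all upward. The shade median of this list was 0.36, and 0.14 without bbx28-5_SS replicate 2, where 12 genes were higher and 3 lower. Interaction counts of the lists are given here from all 12 libraries only, so their dependence on that replicate is not shown. NIA1 was higher in white light, at 0.80 (adjusted p = 2.94e-08), and lower in shade, an interaction of -2.31 ± 0.20 (SE, adjusted p = 4.34e-05).

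**Figure D5:**
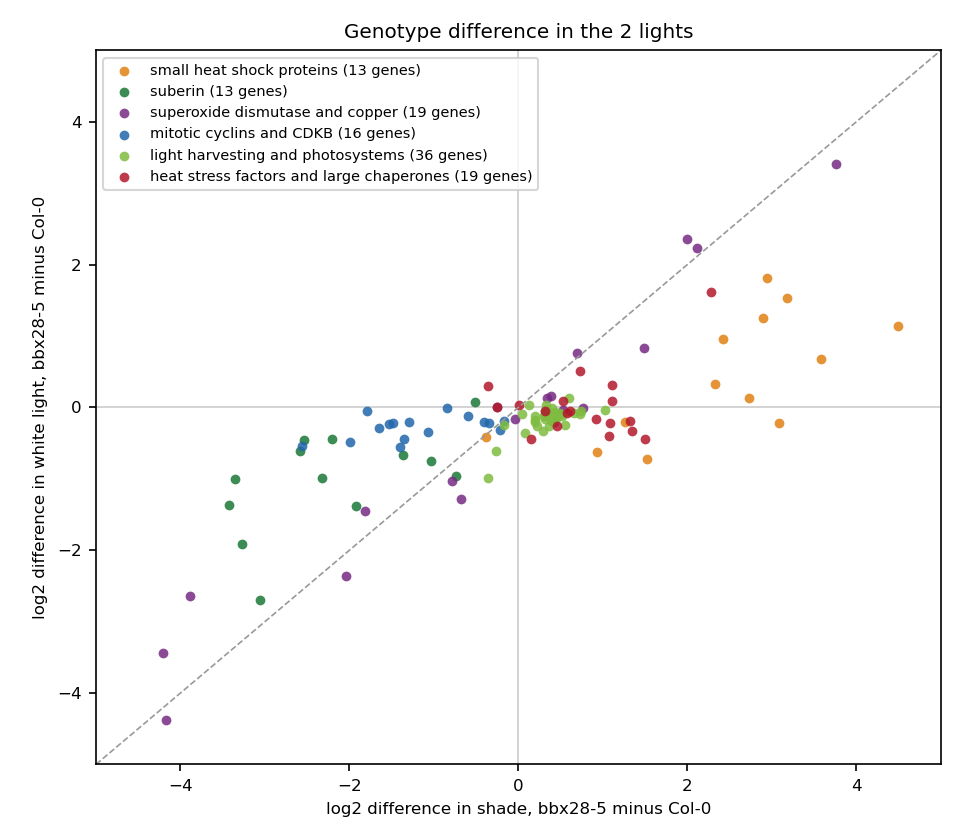
Log2 difference between bbx28-5 and Col-0 in white light against that in shade for the genes of 6 lists tested in both lights, with a dashed line of equality. The copper genes CSD2, CSD1 and FRO5 lie near the line, and COPT2 lies above it on the left. Small heat shock genes with large shade values lie below the line, and most suberin and mitotic genes lie above it on the left.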

How the data were processed

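Stranded polyadenylated RNA libraries of whole seedlings were sequenced by the authors. The submitters' processing notes name FastQC, HISAT, SAMtools, HTSeq, edgeR and the build TAIR10, with no versions. The deposited values used here are raw HTSeq counts per gene, not normalized. A second deposited table, log2 CPM made by the authors after a filter, gave only the list of genes of an alternative. No source used here states the strand setting, so overlapping antisense genes and near-identical copies may share reads. Samples were grouped by their labels.

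From the counts, edgeR 4.0.16 (R 4.3.3) was run on the 6 shade libraries: genes were kept by filterByExpr (18585 of 32833, with 99.9% of the counts), scaled by TMM and tested by the quasi-likelihood test, with Benjamini-Hochberg adjustment over all genes tested and a threshold of 0.05. Standard errors were taken as the log2 difference divided by the square root of F. White light libraries were fitted alike, and the difference between lights as an interaction over 12 libraries. The fit was tested on counts simulated with the same spread for all genes and with no library that stands apart. That test therefore does not cover the spread of the libraries used here. List means use log2 of CPM plus 0.5. DESeq2 1.42.0 and limma 3.58.1 were alternatives.

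The text names BBX28. It names the top 15 genes in each direction by log2 difference, if called with all libraries and without each in turn, with groups that do not overlap and a mean log2 CPM over the 6 libraries no lower than 1. It also names up to 4 called members per list, by adjusted p. Another 15, and a few members outside the rule such as CSD3, CYC1BAT and HSFA7A, were chosen after their values were seen. The comparison, its members and the 45 gene lists were chosen with earlier results of these data known. Names and sequences are from RefSeq TAIR10.1, in which 32548 gene IDs matched.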

Additional observations from a re-analysis of the deposited data

Results flagged for a closer look

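The genotype difference itself differed between shade and white light for 2032 genes, by the interaction test in edgeR with Benjamini-Hochberg adjustment over 19711 genes. Over all genes tested that was 10.3%. Among the largest rises and falls in shade, 15 named in each direction, 9 were of this kind, each with 3 libraries per group. They were picked for their large shade differences, and the interaction test uses the same shade libraries. That choice favours a called interaction. The 9 therefore cannot be weighed against the 10.3%, and their sizes are a description.

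The values below are log2 differences in shade minus those in white light. UBC12 had 3.47 ± 0.63 (SE, adjusted p = 0.0046) and HSP21 3.43 ± 0.69 (SE, adjusted p = 0.008), both higher in shade. Lower values in shade were found for AT4G11210, a dirigent-like protein, with -3.10 ± 0.42 (SE, adjusted p = 0.000775), for AT5G44550 with -2.55 ± 0.52 (SE, adjusted p = 0.00818) and for UMAMIT14 with -2.11 ± 0.47 (SE, adjusted p = 0.0131). AT5G07475 had -1.97 ± 0.37 (SE, adjusted p = 0.00517), AT1G78990 -1.83 ± 0.35 (SE, adjusted p = 0.00586) and AT2G22510 -1.81 ± 0.41 (SE, adjusted p = 0.0148). The smallest of these differences was that of AT2G23540, with -0.92 ± 0.17 (SE, adjusted p = 0.0056).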

How the results depend on the processing

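The count of 3693 called genes in shade was 6974 in a fit of all 12 libraries, 7286 with limma voom and sample weights, and 1152 to 7801 when single libraries were left out. For genes called higher (1818) the same settings gave 4124, 3783 and 513 to 4112, and total counts 854. For genes called lower (1875) they gave 2850, 3503 and 639 to 3689, total counts 3854, and a transcript length offset, chosen after seeing the data, 3063. At least 2-fold calls (1350) were 712 with a filter of 5 CPM in 3 libraries and 825 to 1545 without single libraries. The interaction count (2032) was 3120 with total counts and 1130 to 4545 without single libraries. The difference of BBX28 was 0.34 with total counts and 0.42 to 0.68 without single libraries. The share of calls that were higher was 49.2%, 18.1% with total counts and 41.4% with the length offset. The causes were not tested, except that leaving out a library leaves fewer samples. For the 193 named genes tested, 2766 of 3053 alternative values kept direction and call, 287 kept direction but lost the call and 0 reversed. Most of these genes were named because they were called with all 6 libraries. The largest rises and falls also had to stay called without each library in turn. This agreement is therefore largely set by the choice of genes and does not measure how stable calls are over all genes.

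Residuals of same-numbered libraries correlated at -0.147, -0.0145 and 0.0657. Libraries of different numbers were not compared, so these values do not settle whether replicate numbers pair the samples. With the replicate block 2407 genes were called in shade, 1113 of them higher, and BBX28 differed by 0.56. Depth limits genes near the floor of 3 counts, such as the seed genes in Col-0 and FRO4 in bbx28-5.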
